A study of Homo sapiens with 8 samples.

Results

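The loci described here are microRNA genes with signal in the input RNA of a ribosome profiling study of METTL16. They are the symbols of the deposited table that begin with MIR and a digit or with MIRLET7, do not end in HG, and have a mean of at least 1 TPM over the 4 input libraries. TPM is a length-scaled share of a library's transcripts. Among the 26830 genes listed were 1877 microRNA loci, and 63 of them met the rule. The loci were thus chosen by their input TPM in all 4 cultures together, so their being above 1 TPM is no finding. Just inside the limit lay MIR4728 at a mean of 1.03 TPM and MIR3650 and MIR4516, both at 1.11 TPM, and just outside it MIR26A2 at 0.983, MIR3936 at 0.973 and MIR640 at 0.943 TPM.

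The cells are labelled HEK293T, a human embryonic kidney line, and came from 1 clone that carries Cas9. Lentiviral guides against METTL16, an RNA methyltransferase, gave the cultures sgMETTL16-1, sgMETTL16-2 and sgMETTL16-3, and a negative control guide gave the culture sgNS. All 4 cultures were selected for at least 1 week with blasticidin (10 µg/ml) together with puromycin (2 µg/ml). Before collection they received cycloheximide (100 µg/ml, 5 min), an inhibitor that halts elongating ribosomes. From each culture an input library and a library of ribosome footprints (17 to 34 nt) were read as 51-base single reads after removal of ribosomal RNA. There are thus 3 sgMETTL16 cultures and 1 sgNS culture for each kind of library, and each sgMETTL16 culture has a different guide.

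MicroRNA genes are transcribed as long primary transcripts, often within the introns of other genes. DROSHA with DGCR8 cuts a hairpin out of the primary transcript in the nucleus, XPO5 exports it, and DICER1 trims it to a short duplex. One strand, the mature microRNA, is loaded into an Argonaute protein and finds messenger RNAs mainly through its seed, bases 2 to 8. Mature microRNAs are not translated. Their lengths among the members, as RefSeq gives them, ran from 17 to 28 nt with a median of 22, below the 51 bases of a read, and the hairpins had a median of 74 bases.

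The sequences below, from RefSeq (GRCh38.p14), belong to the loci on which the results turn. RefSeq's tables held 61 of the 63 loci, 52 with a hairpin and 56 with a mature sequence. The mature sequences of the best-read loci and of loci past the test in the input have their seeds in capitals.
hsa-miR-1282: uCGUUUGCcuuuuucugcuu
hsa-miR-3651: cAUAGCCCggucgcugguacauga
hsa-miR-6516-5p: uUUGCAGUaacaggugugagca
hsa-miR-6516-3p: aUCAUGUAugauacugcaaaca
hsa-miR-4721: uGAGGGCUccaggugacggugg
hsa-miR-762: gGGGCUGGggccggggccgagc
hsa-miR-4263: aUUCUAAGugccuuggcc
hsa-miR-548at-5p: aAAAGUUAuugcgguuuuggcu
hsa-miR-6728-5p: uUGGGAUGguaggaccagagggg

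Members with a mature sequence had 70 mature names and 68 seeds, and 4 seeds were shared between loci. The copies of MIR941 and the copies of MIR4315 each encode 1 mature sequence, so a fragment of that sequence alone cannot be placed at 1 copy. In the input MIR941-1 had values of its own, 0, 7.07 and 9.51 TPM in sgMETTL16 and 0.9 TPM in sgNS. MIR941-2 to MIR941-5 had identical values, 1.83, 1.77 and 0.89 TPM against 0.23 TPM. The other shared seeds join different microRNAs: miR-4434 with miR-4516, and miR-4728-5p with miR-6785-5p.
hsa-miR-941: cACCCGGCugugugcacaugugc
hsa-miR-4315: cCGCUUUCugagcuggac
hsa-miR-4434: aGGAGAAGuaaaguagaa
hsa-miR-4516: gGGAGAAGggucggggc
hsa-miR-4728-5p: uGGGAGGGgagaggcagcaagca
hsa-miR-6785-5p: uGGGAGGGcguggaugauggug

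The whole hairpins of 4 loci show how little room a 51-base read has in them; capitals mark the mature arms. MIR6516 is at chr17:77089417-77089497 (plus strand), MIR548AT at chr17:42494773-42494830 (plus), MIR4657 at chr7:44881748-44881800 (minus) and MIR4434 at chr2:64525513-64525565 (plus). Their lengths are 81, 58, 53 and 53 bases.
MIR6516: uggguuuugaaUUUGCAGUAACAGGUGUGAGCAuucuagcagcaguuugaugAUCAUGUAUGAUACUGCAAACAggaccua
MIR548AT: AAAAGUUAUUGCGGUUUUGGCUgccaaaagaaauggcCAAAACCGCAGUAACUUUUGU
MIR4657: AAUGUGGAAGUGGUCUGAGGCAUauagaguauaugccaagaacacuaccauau
MIR4434: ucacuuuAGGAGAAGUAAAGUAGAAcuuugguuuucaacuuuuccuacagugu

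As to the libraries as a whole, METTL16 itself was at 4.72, 5.25 and 4.16 TPM in the sgMETTL16 inputs and at 5.31 TPM in the sgNS input (log2 change -0.68, SE 0.36, limma adjusted p = 0.482), so a lower mRNA was not shown. Its footprints were listed at 0 in all 3 sgMETTL16 libraries and at 19.76 TPM in sgNS. All 543 genes called lower in the footprints had that pattern of 0 values. The footprint libraries had 16.26% to 25.1% of all genes above 0, so these 0 values do not show that METTL16 was no longer translated. All 12 hepatocyte markers examined reached 10 TPM in every input, with sums of 7740.6 to 11474 TPM in sgMETTL16 and 6601.5 TPM in sgNS. Of 8 markers listed for HEK293, NEFL, NEFM and VIM were listed at 0 in all 4 inputs, while the keratins KRT8 and KRT18, which other epithelial cells also express, were above 10 TPM in every input. NES, ENO2 and CDH2 lay between, at no more than 12.06 TPM, and the sums were 1178.4 to 1327.1 TPM against 687.2 TPM. The hepatocyte markers and the markers at 0 go against the cell line label, the keratins do not, and results are given for the cultures as named. Blood and fibroblast markers were under 1 TPM in all inputs for 4 of 5 in each list, and the sums were 193.96 to 619.94 TPM against 216.59 TPM for blood and 4.55 to 5.59 TPM against 2.7 TPM for fibroblasts. The part of these differences in the results below was not tested.

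The input TPM of the loci fell on steps that correspond to single reads. With an effective length of the annotated length minus 50 bases, TPM multiplied by that length came out at whole multiples of 1 constant per library. Within a tolerance of 0.1 read this held for 88.2%, 87.2% and 88.9% of the microRNA loci in sgMETTL16-1, sgMETTL16-2 and sgMETTL16-3. In sgNS it held for 89.8%, each share being over loci estimated at 12 reads or fewer. Among members alone the shares were 82.2%, 80% and 78.95% in sgMETTL16 and 86.7% in sgNS. The constant was set at the most frequent value, so loci at 1 read came out whole largely by construction. Those were 63 of 136, 74 of 148 and 87 of 144 loci in sgMETTL16 and 76 of 166 in sgNS. A single read at a 70-base locus was worth 1.34, 1.31 and 1.10 TPM in the sgMETTL16 inputs and 0.992 TPM in sgNS. The limit of 1 TPM therefore lay near 1 read at a locus of that length.

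**Figure D1:**
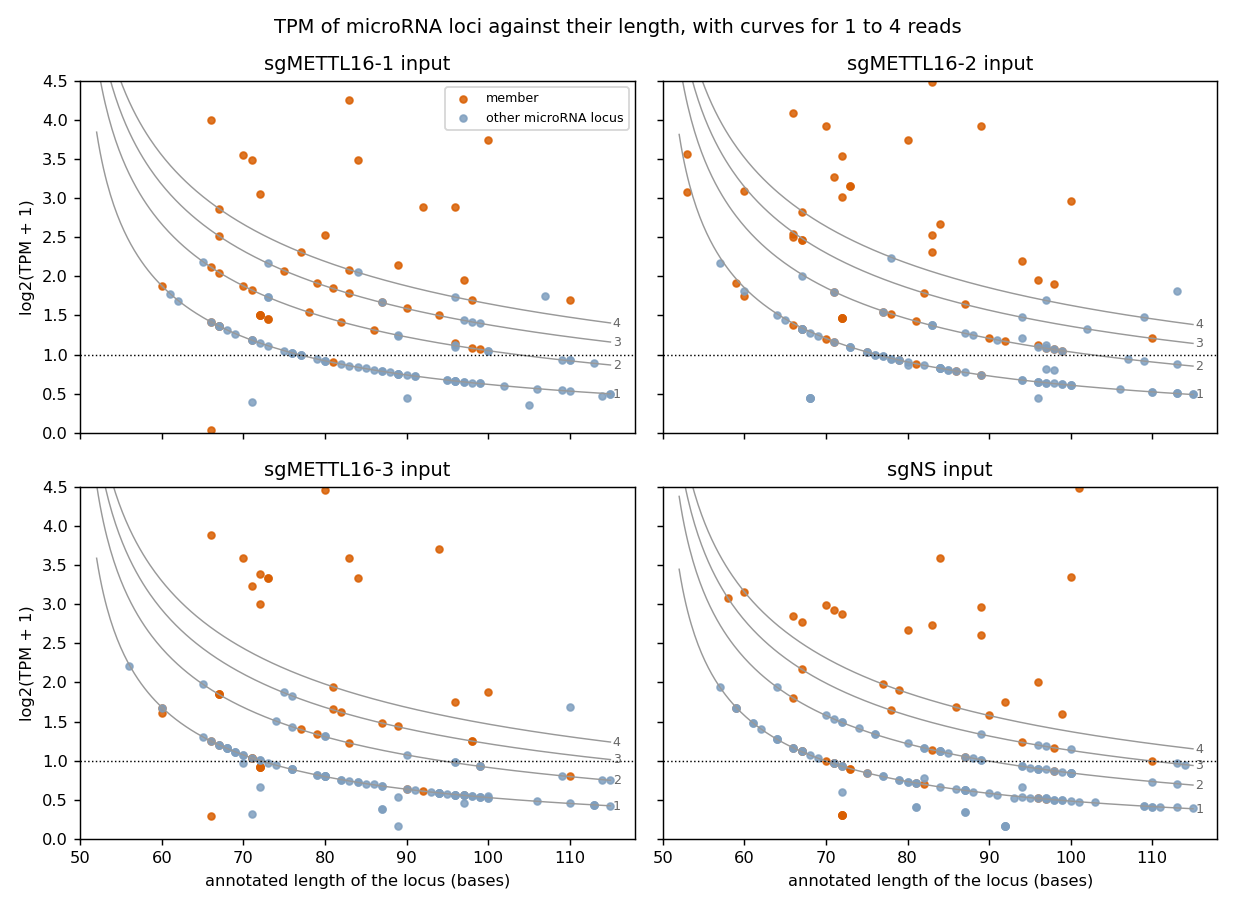
Input level, log2(TPM + 1), against annotated length in bases for the microRNA loci above 0, 1 panel per library (3 sgMETTL16, then sgNS). Grey curves are the levels that 1 to 4 reads would give, the dotted line is 1 TPM, and most points lie on a curve.

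Estimated reads summed over the 4 inputs had a median of 10.01 over the 61 members with a known length. The sum was 10 or fewer for 32 of them, 20 or fewer for 45 and above 100 for 6. Short loci reach the limit most easily, since the effective length shrinks to a few bases. MIR4657 and MIR4434, each 53 bases long, were members through an estimated 1.25 reads and 0.85 reads in sgMETTL16-2, which gave means over the 4 inputs of 2.72 and 1.86 TPM. Both were listed at 0 in the other inputs. At 60 bases or fewer 6 members had no more than 8.88 estimated reads each in all.

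Levels covered a wide range. The median member was at 2.1 TPM, 31 were under 2 TPM, 16 reached 5 TPM and 9 reached 10 TPM. In all 4 inputs 44 members were above 0, 12 in 3 inputs, 3 in 2 inputs and 4 in 1 input only. Of all 1877 microRNA loci 1549 were listed at 0 in every input.

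MIR6723 held nearly all of the signal. This locus is known to lie in a nuclear copy of mitochondrial DNA, so reads cannot be assigned to it with certainty. It was at 16305.62, 17942.26 and 15993.50 TPM in the sgMETTL16 inputs and at 18512.60 TPM in the sgNS input, from 97.6% to 98.5% of the TPM of all members in a library. All 3 sgMETTL16 inputs were below sgNS (log2 change -0.68, SE 0.57, limma adjusted p = 0.792). In these bulk libraries fewer cells and less RNA per cell cannot be told apart. The members together took 1.67%, 1.83% and 1.64% of input TPM in sgMETTL16 (1.71 ± 0.106%, SD, n = 3) and 1.88% in sgNS. An exact two-sided permutation test gave p = 0.25 for that share, the smallest that 3 cultures against 1 allow. Without MIR6723 the members summed to 396.53, 397.59 and 366.67 TPM in sgMETTL16 and 278.8 TPM in sgNS (exact p = 0.25). These sums are on TPM as deposited, on which the median fitted gene was also higher in sgMETTL16, by 0.46 on the log2 scale. The higher sum is therefore not particular to the members.

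**Figure D2:**
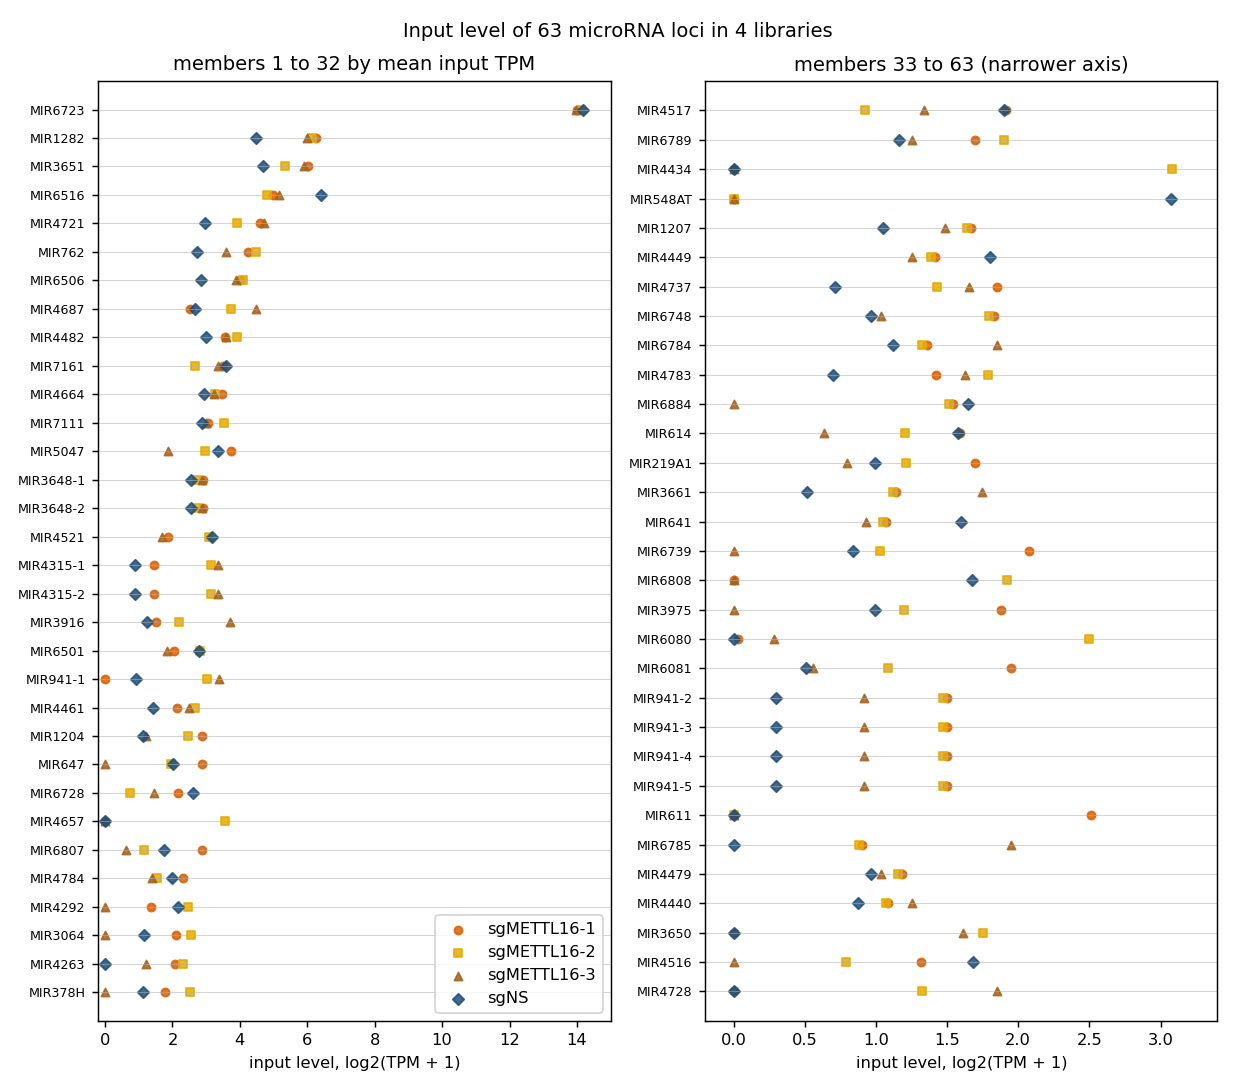
Input level, log2(TPM + 1), of all 63 members in each library, in order of mean TPM (left, members 1 to 32; right, members 33 to 63 on a narrower axis). MIR6723 stands apart above 13 log2 units, and sgNS diamonds lie left of all sgMETTL16 symbols for MIR1282 and right of them for MIR6516.

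The lists of well-studied microRNA families are small beside the share of all microRNA loci that were members, 3.36%, so their counts of 0 are a description. The 12 genes of the let-7 family, a regulator of developmental timing, gave no member, and the highest of them was MIRLET7F1 at a mean of 0.695 TPM. Above 0 in at least 1 input were 5 of the 12, against 17.5% of all microRNA loci. No gene of the miR-17-92 cluster and its paralogs (0 of 12), of miR-15/16 (0 of 6), of a liver-enriched list (0 of 5, MIR192 highest at 0.483 TPM), of a p53-linked list (0 of 7) or of the symbols from MIR512 to MIR527 (0 of 50, of which 42 lie on chromosome 19 and 8 on chromosome X) was a member. MIR122, the most abundant microRNA of liver, as well as MIR21, MIR210 and MIR675 were listed at 0 in all 4 inputs. Among 8 loci that overlap small nucleolar RNAs MIR3651 was the 1 member. A list by symbol of loci linked to ribosomal, transfer or mitochondrial RNA had 18 loci, and their origins were not checked. Its members were MIR6723, MIR4461 and the copies MIR3648-1 and MIR3648-2. MIR4521, not on that list, overlaps the transfer RNA gene TRS-GCT4-3.

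The members lay in genes that were themselves expressed. Of 61 members with a position 50 overlapped a protein-coding gene (82%), against 62.8% of the 1789 other microRNA loci with a position. Such a gene was found in the deposited table for 45 members and 1055 other loci. The highest mean input level among the overlapping genes was taken for each locus. Its median was 22.2 TPM for members and 3.19 TPM for other loci, and a gene counted once for each locus it overlaps. On the same strand as the protein-coding gene were 38 members, on the opposite strand only 5, and for 7 the tables give no strand. Only 3 members overlapped no other annotated gene. Chromosome 17 held 13 of the placed members (21.3%), against 5.31% of the other loci. The hairpins of members had a median GC content of 58.3%, against 51.5% for other loci. These are descriptions of the chosen loci, with no test, and level in the input chose them.

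In the input comparison of sgMETTL16 with sgNS, 14 of 63 members passed the threshold, an adjusted p under 0.05 in limma on log2(TPM + 1) over all 10967 genes with a mean of 1 TPM or more. Of these 3 were higher in sgMETTL16 and 11 lower. Among all genes fitted 2.83% passed, 1.58% higher and 1.25% lower. The called members other than MIR6516 (13 of 14) rested on 20 estimated reads or fewer in all 4 inputs together, 8 of them on 10 or fewer. The calls are therefore described below by those reads. For 6 of the 14 (MIR548AT, MIR6808, MIR4516, MIR4263, MIR4315-1 and MIR4315-2) the lower group had a mean under 1 TPM, so the limit of 1 TPM admitted them only through the group in which they were high. Their direction was fixed by that, no p is given for them, and the count of 14 supports nothing beyond this description.

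Spread between replicate cultures was wide for the members. The SD of the centred log2 values over the 3 sgMETTL16 inputs had a median of 0.56 for the 59 members between 1 and 20 TPM, against 0.25 for 8512 other genes in that range. The fit took its variance wholly from the trend over level (prior degrees of freedom were infinite), which judges a locus by the usual spread of genes at its level. With the spread estimated on small RNA genes only, 2 members passed, MIR548AT and MIR6516. In that fit 48 of 359 small RNA genes passed as higher and 9 as lower. MIR548AT is among the loci whose direction the limit of 1 TPM fixed. With each gene's own spread none of all 10967 genes passed. The median log2 change of members was -0.07, against -0.06 over all genes fitted. On TPM as deposited the median gene was higher by 0.46, and the centred changes are relative to that shift. All 3 sgMETTL16 inputs lay above sgNS for 12 members, with 23.4% of all genes above, and below it for 20, with 34.2% of all genes below.

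**Figure D3:**
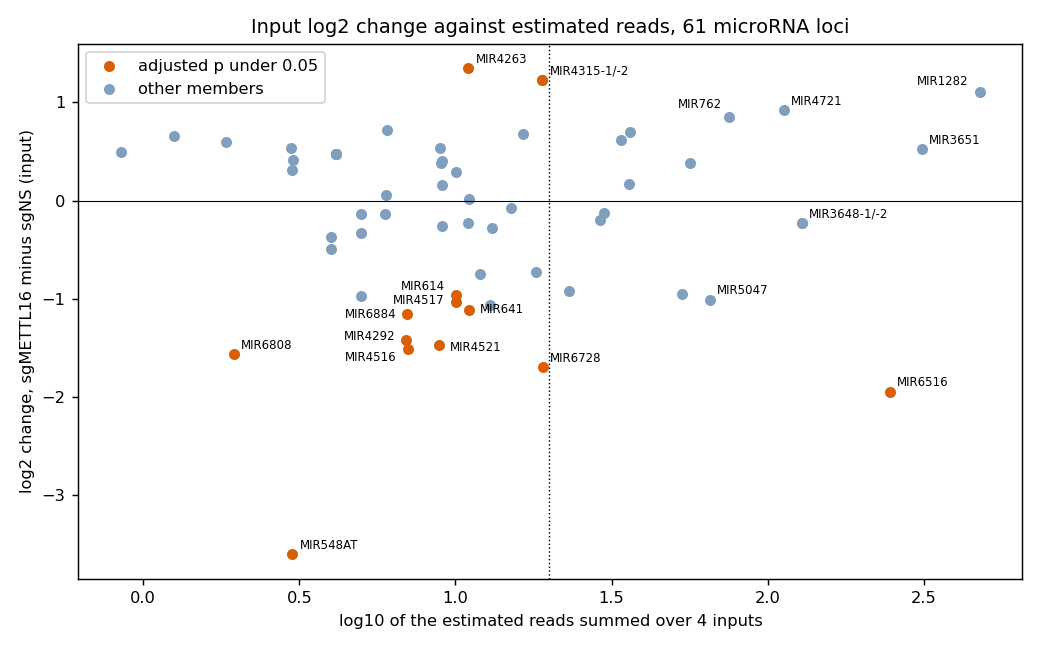
Input log2 change, sgMETTL16 minus sgNS, against log10 of the estimated reads summed over the 4 inputs for the 61 members with a known length, with loci past the threshold in orange. The dotted line marks 20 reads, and MIR6516 is the called locus to its right.

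MIR6516 was the well-read locus that passed. It was at 30.51, 27.02 and 34.73 TPM in sgMETTL16 inputs (30.8 ± 3.86, SD, n = 3) and at 83.51 TPM in sgNS, from an estimated 35, 32 and 49 reads against 130 reads. The groups did not overlap (log2 change -1.95, SE 0.40, limma adjusted p = 0.0001). That call was lost on TPM as deposited (-1.42, adjusted p = 0.126), on TPM rescaled without small RNAs (-1.66, adjusted p = 0.0871) and without sgMETTL16-1 (-1.89, adjusted p = 0.142), while all 3 changes kept their sign. Over all 13 alternatives its adjusted p ran from 1.71e-11 to 0.865, the highest with each gene's own spread.

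A second small RNA gene covers that locus. MIR6516 shares 77 of its 81 bases with SCARNA16, a small Cajal body RNA of 187 bases of the kind that guides modification of spliceosomal RNAs, and begins at its base 111. SCARNA16 was at 492.98, 498.37 and 520.94 TPM in sgMETTL16 inputs (504.1 ± 14.8, SD, n = 3) and at 95.37 TPM in sgNS, or about 2523, 2608 and 3232 reads against 659. It changed by 1.86 on the log2 scale (SE 0.44, limma adjusted p = 0.00162), opposite in sign to that of MIR6516, and its call was lost without sgMETTL16-1 (adjusted p = 0.296; range over 13 alternatives 7.22e-06 to 0.865). TPM of SCARNA16 over that of MIR6516 was 16.2, 18.4 and 15 in sgMETTL16 and 1.14 in sgNS. Around both lie SNHG20, a long non-coding RNA (log2 change -0.32, adjusted p = 0.887), and SEC14L1, a lipid-binding protein gene (-0.05, adjusted p = 0.994). Reads in the shared bases can be given to either locus by the authors' quantification, and how they were divided was not tested.

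A similar arrangement holds for MIR3651, which shares 87 of its 90 bases with the small nucleolar RNA SNORA84 inside IARS1, the gene of isoleucyl-tRNA synthetase. MIR3651 was at 63.47, 39.20 and 58.65 TPM in sgMETTL16 inputs (53.8 ± 12.8, SD, n = 3) and at 24.89 TPM in sgNS. Its centred values overlapped between the groups (log2 change 0.52, SE 0.40, limma adjusted p = 0.741). SNORA84 was at 5.01, 6.76 and 5.17 TPM in sgMETTL16 and at 0.46 TPM in sgNS (log2 change 1.65, SE 0.35), from about 16, 21 and 19 reads against 2. It passed the threshold as higher. With sgNS under 1 TPM, SNORA84 also met the limit of the fit only through sgMETTL16. That fixed its direction, so no p is given for it. The SNORA84 call was lost on TPM as deposited, with the spread of small RNA genes and with each gene's own spread.

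**Figure D4:**
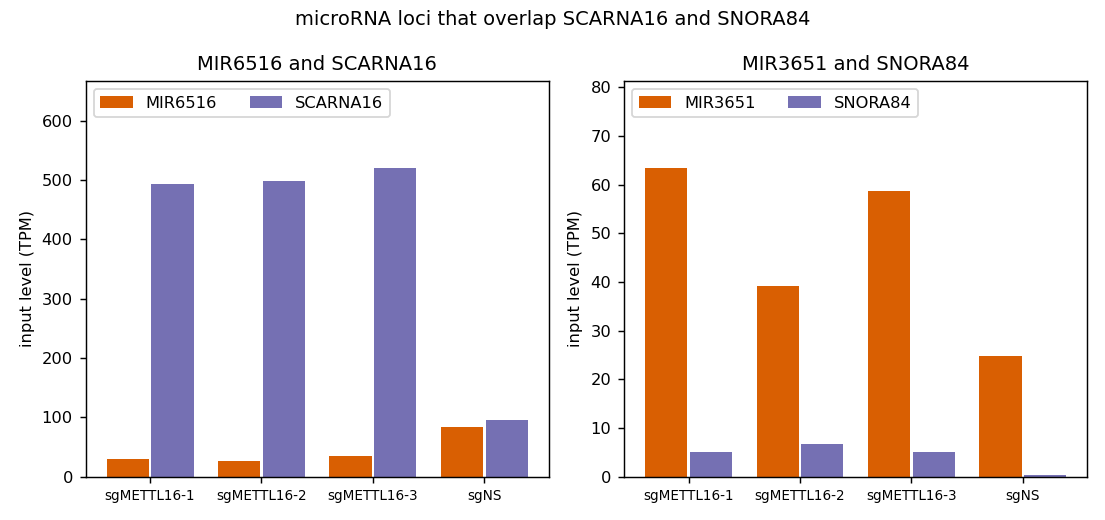
Input TPM of MIR6516 with SCARNA16 (left) and of MIR3651 with SNORA84 (right) in each library. SCARNA16 is at 492.98 to 520.94 TPM in sgMETTL16 and 95.37 TPM in sgNS, while MIR6516 is at 27.02 to 34.73 TPM in sgMETTL16 and 83.51 TPM in sgNS.

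MIR1282 had the most estimated reads of any member with a known length, 142.57, 134.71 and 144.87 in sgMETTL16 inputs and 55.14 in sgNS. It was at 74.82, 69.15 and 62.72 TPM in sgMETTL16 (68.9 ± 6.05, SD, n = 3) and at 21.45 TPM in sgNS. The groups did not overlap, but the log2 change of 1.11 (SE 0.40) missed the threshold (limma adjusted p = 0.134). It passed in 4 of the alternatives, among them TPM rescaled without small RNAs (adjusted p = 0.0419) and the fit of genes at 5 TPM or more (adjusted p = 0.0119), and the highest adjusted p over 13 alternatives was 0.9997. MIR1282 lies opposite SERF2, a gene for a small charged protein, which was at 79.17, 73.56 and 69.63 TPM against 93.06 TPM (log2 change -0.85, adjusted p = 0.386). Whether the counting used strand is not given in the sources used here, so reads of the 2 genes cannot be told apart.

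MIR4721 and MIR762 were also above sgNS in all 3 sgMETTL16 inputs without passing. MIR4721 was at 23.23, 14.21 and 25.08 TPM in sgMETTL16 and 6.78 TPM in sgNS (log2 change 0.92, SE 0.38, adjusted p = 0.247). It lies in TUFM, which encodes a mitochondrial translation elongation factor and stood at 172.03, 176.76 and 166.59 TPM against 130.03 TPM (-0.13, adjusted p = 0.973). MIR762 was at 18.07, 21.35 and 11.05 TPM in sgMETTL16 and 5.64 TPM in sgNS (0.85, SE 0.38, adjusted p = 0.311). MIR4721 passed in the fit of genes at 5 TPM or more (adjusted p = 0.0422) and without sgMETTL16-2 (adjusted p = 0.0249), and MIR762 without sgMETTL16-3 (adjusted p = 0.0456), with highest values of 0.9997 over 13 alternatives each.

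The remaining loci among the 12 with the highest input level did not pass either. MIR6506, in MARF1, a meiosis regulator known from mouse oocytes, was at 15.02, 16.06 and 13.80 TPM in sgMETTL16 and 6.21 TPM in sgNS (log2 change 0.62, adjusted p = 0.601). MIR4687, in the calcium sensor gene STIM1, varied widely between sgMETTL16 inputs, at 4.75, 12.46 and 21.09 TPM against 5.37 TPM in sgNS, and its groups overlapped. MIR7161 was at 10.26, 5.39 and 9.13 TPM in sgMETTL16 and 11.11 TPM in sgNS (log2 change -0.96, adjusted p = 0.197), and passed as lower without sgMETTL16-3 (adjusted p = 0.00482). MIR4482, MIR4664 and MIR7111 had log2 changes of 0.17, -0.13 and -0.20, and the sign of MIR4664 and MIR7111 was positive on TPM as deposited. Of the 16 members above 20 estimated reads 8 had a positive log2 change, and MIR6516 was the 1 past the threshold.

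The 3 calls higher in sgMETTL16 came from 3 loci, of which the copies of MIR4315 have identical values. MIR4263, in the gene BABAM2 of a DNA repair complex, had an estimated 4, 5 and 2 reads in sgMETTL16 and was listed at 0 in sgNS and no fold is given. The identical values of MIR4315-1 and MIR4315-2 came from about 1.5, 6.94 and 9.52 reads at each copy in sgMETTL16 and 1 in sgNS (log2 change 1.23, SE 0.35). After centring sgMETTL16-1 lay below sgNS for MIR4315, so its groups overlapped.

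The 10 lower calls other than MIR6516 had 1 to 10 estimated reads in sgNS and no more than 5 in any sgMETTL16 input. MIR548AT, inside the proton pump subunit gene ATP6V0A1, was listed at 0 in all 3 sgMETTL16 inputs and had about 3 reads in sgNS, or 7.43 TPM at its 58 bases. No fold is given against 0, and the 3 sgMETTL16 values have no spread as deposited. MIR6728, in the enolase gene ENO1, had 5, 1 and 3 reads in sgMETTL16 and 10 in sgNS (log2 change -1.69, adjusted p = 2.84e-05). MIR6808 was called lower on 0, 1 and 0 reads in sgMETTL16 and 1 read in sgNS (log2 change -1.57), and MIR4516 on 2, 1 and 0 reads against 4 (-1.51). Adjusted p-values for the other 6 (MIR4521, MIR4292, MIR6884, MIR641, MIR4517 and MIR614) ran from 0.000405 to 0.0424. Of 11 alternatives each, MIR4517 and MIR614 passed in 1 and MIR641 in 4, and all 3 calls were lost with a pseudocount of 0.1 and with no filter. On TPM as deposited the groups of MIR6808, MIR4292, MIR4517 and MIR614 overlapped.

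Host genes are given beside the loci. Of 33 distinct protein-coding genes with a member on their strand 0 passed in limma, with 2.83% of all fitted genes past it, and 3 had an unadjusted p under 0.05, with 11.2% of all fitted genes. Their log2 changes ran from -1.20 to 0.75. Over the 36 pairs of locus and host, the 2 changes had 1 sign in 21. The host was at the higher mean TPM in 34 pairs. The size of the log2 change had a median of 0.56 for the members and 0.27 for the hosts. One gene that overlaps a member did pass: GPRC5A, a receptor gene that holds MIR614 and whose strand is not in the tables, was at 7.69, 12.65 and 11.72 TPM in sgMETTL16 and at 2.04 TPM in sgNS (log2 change 1.39, adjusted p = 0.00908), while MIR614 was lower on 3, 2 and 1 reads against 4. The GPRC5A call was lost on TPM as deposited (adjusted p = 0.187), on TPM rescaled without small RNAs (adjusted p = 0.112) and without sgMETTL16-1 (adjusted p = 0.182), in a range of 0.00124 to 0.865.

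The machinery that makes and uses microRNAs was measured at its own genes. Of 32 such genes 31 were fitted, none passed the threshold in limma, where 2.83% of all genes did, and none had an unadjusted p under 0.05, where 11.2% did. With 31 genes, 0 past the threshold is near the general share. Their median log2 change was -0.09, from -0.80 at HNRNPA1, a binder of some primary transcripts, to 0.65 at XRN2, a nuclear exonuclease. DROSHA was at 10.1, 9.69 and 6.44 TPM in sgMETTL16 and 6.73 TPM in sgNS (log2 change -0.22, SE 0.37, adjusted p = 0.940). Its partner DGCR8 changed by -0.27 (SE 0.37), the export receptor XPO5 by -0.02 (SE 0.38) and DICER1 by -0.05 (SE 0.36). AGO2, the Argonaute that can cut its target, was at 17.56, 20.99 and 17.16 TPM against 7.84 TPM (0.61, SE 0.38, adjusted p = 0.612). Of the genes named as microRNA hosts by a symbol ending in HG 8 were fitted, none passed and 1 had an unadjusted p under 0.05.

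Nearly all members were listed at 0 in the ribosome footprints. Of 63 members 60 were listed at 0 in all 4 footprint libraries (95.2%), against 25.6% of all 10967 genes with a mean input of 1 TPM or more. At 1 to 20 TPM of input all 59 members were at 0, against 29.9% of 8512 other genes. At equal TPM a shorter locus holds fewer reads, and members with a known length had a median of 77 bases. MIR6516, above 0 in 2 footprint libraries, had 291.49 and 234.09 TPM there. Length was not matched, so these shares are no result about microRNA loci. No depth per footprint locus was estimated, so a 0 shows no read and not the absence of a fragment.

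**Figure D5:**
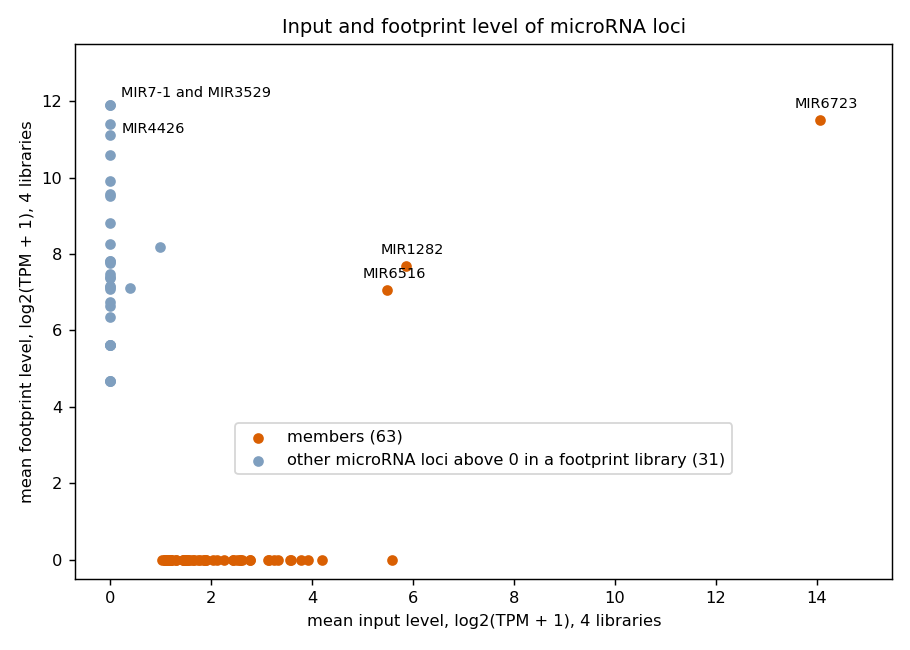
Mean footprint level against mean input level, both log2(TPM + 1) over 4 libraries, for the 63 members (orange) and the 31 other microRNA loci above 0 in a footprint library (blue). MIR6723, MIR1282 and MIR6516 are the members off the zero line, and most of the other loci have no input.

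MIR6723 was the member above 0 in all 4 footprint libraries, at 3711.19, 2170.75 and 1591.26 TPM in sgMETTL16 and 4119.45 TPM in sgNS. After scaling it changed by -0.27 (log2, SE 0.43, limma adjusted p = 0.695), against -0.82 on TPM as deposited and -2.94 when libraries were centred on the median gene. Footprint over input TPM was 0.228, 0.121 and 0.0995 in sgMETTL16 and 0.223 in sgNS. The change of that ratio was 0.41 (SE 0.57, adjusted p = 0.805), and -0.67 on TPM as deposited.

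MIR1282 was listed at 0 in the 3 sgMETTL16 footprint libraries and was at 817.58 TPM in sgNS. It passed as lower in the footprints and in the footprint to input ratio. The footprint filter of 1 TPM admitted it only through sgNS, which fixed the direction, so neither a p nor a fold is given. Of 9297 genes fitted in the footprints 6.54% passed, 0.699% higher and 5.84% lower, and of 8002 genes fitted in the ratio 0.737% passed, 0.55% higher and 0.187% lower. All 543 genes called lower in the footprints were at 0 in all 3 sgMETTL16 libraries, so MIR1282 is 1 of many with that pattern. Its footprint call was lost without each of the 3 cultures in turn, as was every other footprint call. Its ratio call was lost with the culture as a block and without sgMETTL16-1 or sgMETTL16-3. No gene passed in any of those ratio fits.

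MIR6516 was at 291.49 and 234.09 TPM in the footprints of sgMETTL16-1 and sgMETTL16-2 and listed at 0 in sgMETTL16-3 and sgNS (adjusted p = 0.695). SCARNA16 had the same pattern, with 295.67 and 192.55 TPM in sgMETTL16-1 and sgMETTL16-2 and 0 in sgMETTL16-3 and sgNS. Mature microRNAs themselves have lengths within the 17 to 34 nt recovered from the gel, and the origin of these fragments was not tested.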

How the data were processed

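Input RNA and ribosome footprints of 4 cultures gave 8 libraries. The deposited values are TPM for 26830 gene symbols, made by the authors from reads aligned to GRCh38. Per the submitters' processing notes the tools were STAR and RSEM 1.2.31, and the STAR version is not given in the sources used here. No read totals came with them. Read numbers were estimated here from the steps in TPM, with an effective length of the RefSeq (GRCh38.p14) length minus 50 bases, so they are estimates, counting intervals were not computed, and loci without a RefSeq length (2 members) have none.

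The members and gene lists were chosen with earlier results of these data known. Comparisons used limma 3.58.1 (R 4.3.3) with values as log2(TPM + 1), which understates changes of low genes, with an intensity trend and Benjamini-Hochberg adjustment over all genes with a mean of 1 TPM or more and a threshold of 0.05. Input libraries were centred on the median gene, and footprint libraries were scaled by the median ratio over 1870 genes above 0 in all 4. The ratio of footprint to input was the interaction of guide and library kind over 8002 genes in 8 libraries. With 1 sgNS culture, its spread was taken to equal that of sgMETTL16. Each number marks 1 culture, per the series' design text, and the labels do not say that cultures are independent. The p-values therefore rest on spread between these cultures and guides, which may be technical. In the input fit that spread came wholly from the trend over genes at a given level, not from the locus itself. Deviations of the input and the footprint library of a culture from their group means correlated at 0.0511, 0.0128 and 0.0635 across genes. As both come from 1 culture they are paired, and the fit with culture as a block was the alternative to the fit without it. The fits were tested on simulated data.

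Loci were named by rule: the 12 with the highest input, those past the threshold, the 6 highest and the 6 lowest changes, those with footprints, those with shared seeds or at the limit, and those in the lists. SCARNA16, SNORA84 and GPRC5A were chosen after their values were seen. Alternatives changed the pseudocount, the filter, the scaling, the trend and the cultures used. Added after seeing the data were the source of the spread and the removal of members at 20 estimated reads or fewer. Python 3.11.15, pandas 2.3.3, numpy 2.4.6 and matplotlib 3.10.9 were used.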

Additional observations from a re-analysis of the deposited data

How the results depend on the processing

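The number of loci that met the rule moved with its limit, to 134 at 0.5 TPM, 32 at 2 TPM and 16 at 5 TPM. In the input, the member counts of 3 higher and 11 lower became 0 and 0 on TPM as deposited. They were 1 and 1 on TPM rescaled without small RNAs, and 2 and 2 among genes at 5 TPM or more. Over all 10967 genes, 173 higher and 137 lower became 22 and 1 as deposited and 70 and 15 rescaled. Among all 6277 genes at 5 TPM or more, 224 were higher and 158 lower. Leaving out 1 culture gave 2 to 7 higher and 4 to 16 lower members. Over all genes it gave 59 to 278 higher and 36 to 392 lower. Of the alternatives chosen after seeing the data, the spread of small RNA genes gave 0 higher and 2 lower members. Over all 359 small RNA genes it gave 48 and 9. Each gene's own spread gave 0 and 0, for the members and for all 10967 genes. Dropping members at 20 estimated reads or fewer gave 0 and 1 among 18 members, of which 2 have no read estimate. The median log2 change, -0.07 as reported, was 0.0704 with a pseudocount of 0.1, -0.0138 with 0.5 and 0.0669 with no filter. It was 0.46 on TPM as deposited, 0.42 on rescaled TPM and 0.0207 over those 18 members. The cause was not tested. Changes of sign, none past the threshold, were MIR4664 (-0.13 as reported) at 0.0116 with no filter, 0.40 on TPM as deposited, 0.22 rescaled and from -0.2621 to 0.0289 without 1 culture, MIR7111 at 0.33 as deposited and 0.15 rescaled, MIR4687 (0.38) from -0.2423 without sgMETTL16-3 to 0.961 without sgMETTL16-1, and the ratio of MIR6723 at -0.67 as deposited. The 1 footprint call became 0 when libraries were centred on the median gene, among genes above 0 in all 4 footprint libraries, where MIR1282 is not tested, and without each culture in turn (0 to 0). No gene passed in any of these footprint fits. The 1 ratio call became 0 with the replicate block, where 0 of 8002 genes passed, and ran from 0 to 1 without 1 culture. Without sgMETTL16-1 or sgMETTL16-3 no gene passed in the ratio. Depth limits most loci, as 45 of 61 members rest on 20 estimated reads or fewer.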

Other observations

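MicroRNA loci with footprints were mostly not those with input. Of all 1877 microRNA loci 34 were above 0 in a footprint library, 3 of them members, and 29 of the 34 were listed at 0 in all 4 inputs. In exactly 1 footprint library 21 of the 34 were above 0, in 2 libraries 6, in 3 libraries 4 and in all 4 libraries 3, namely MIR6723, MIR7-1 and MIR4426. MIR7-1, in an intron of HNRNPK and known from neurons and pancreas, was at 1544.63, 1588.12 and 8713.55 TPM in sgMETTL16 footprints and 3574.78 TPM in sgNS footprints. MIR4426 was at 4374.18, 608.38 and 2035.14 TPM in sgMETTL16 and 3790.43 TPM in sgNS. For both loci sgNS lay within the range of the sgMETTL16 libraries.

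MIR3529, MIR3654 and MIR182 were above 0 in the 3 sgMETTL16 footprint libraries and listed at 0 in sgNS. MIR182, of a cluster expressed in sensory cells, had 1544.63 TPM in sgMETTL16-1, 2382.18 in sgMETTL16-2 and 2280.37 in sgMETTL16-3. In the same libraries MIR3529 had 1317.77, 1791.42 and 12092.33 TPM and MIR3654 had 2174.67, 5566.34 and 1095.53 TPM. These loci were seen after their values and no test of them is given. How footprint fragments were divided among loci of similar sequence was not tested either. MIR7-1 and MIR182 had 1 and the same value in sgMETTL16-1, and MIR1301 and MIR320A shared 605.43 TPM there. Values that repeat between loci can arise where each rests on few fragments. No depth was estimated for footprint loci, so a high TPM here need not mean many fragments. Nor does a 0 in sgNS show absence.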
